A study of Danio rerio with 16 samples.

Results

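The genes described here are 48 gene IDs, of 31388 in the deposited table, that were lower in sorted endothelial cells of cryoinjured zebrafish hearts than in those of uninjured hearts. They were chosen on that very difference: every mCherry-positive library at 7 days post injury (7 dpi) had to lie below every uninjured one, with an uninjured mean of at least 20 TPM, a mean under 50 TPM at 7 dpi and a ratio of the means, each plus 1, of at least 3. TPM is the share of a transcript among all transcripts of a library, scaled to a total of 1000000. In all, 67 IDs met these thresholds. Keeping 1 ID of each set with identical values in all 16 libraries left 49, and 1 more, CALCRL (ENSDARG00000011571), was left out by ID. The mirrored thresholds, for IDs higher at 7 dpi, were met by 65 IDs. That count also keeps 1 ID of each identical set, so it stands beside the 49 and not the 67. The fall from uninjured hearts to 7 dpi is therefore a property of the choice, is given as a description without a test, and supports nothing.

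RNA was sequenced from 16 sorted samples, each from the pooled ventricular apexes of 3 to 5 adult zebrafish aged 3 to 9 months. All fish were double transgenic for kdrl:mCherry, a reporter under the promoter of an endothelial VEGF receptor gene, and postnb:citrine, under that of a periostin gene, which is active in fibroblasts that lay down matrix. The 4 groups were mCherry-positive cells of hearts without injury (3 libraries, pools 2, 3 and 4), mCherry-positive cells at 7 dpi (4 libraries, pools 5, 6, 7 and 9), citrine-positive cells at 7 dpi (3 libraries, pools 7, 9 and 10) and cells without either colour at 7 dpi, called double-negative here (6 libraries, pools 5 to 10). Cryoinjury kills part of the ventricle wall with a cold probe. The double-negative sort is a mixture of all cells that showed neither colour. Both other sorts came from injured hearts alone, and every uninjured library came from pools 2 to 4, so injury and pool cannot be told apart.

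Endothelial cells line the vessels of the heart, and the endocardium, a related layer, lines its chambers. After cryoinjury the zebrafish heart forms a transient scar and regenerates, and both layers grow into the damaged region. They are known for receptor, junction and transcription factor genes such as kdrl and cdh5, and for genes that respond to blood flow, KLF4 among them. The genes below are ordered by what they are known to do, as background from the human or mouse genes of the same name unless stated otherwise.

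The sort was checked with its defining genes. The reporter gene kdrl (ENSDARG00000105215) had 387 ± 94.4 TPM (SD, n = 3) in uninjured and 214 ± 51.0 TPM (n = 4) in 7 dpi mCherry-positive libraries, 1.1 ± 0.55 TPM (n = 3) in citrine-positive cells, and 36.9 ± 13.5 TPM (n = 6) in double-negative libraries. The junction gene cdh5 (ENSDARG00000075549) had 416 ± 123, 333 ± 96.8, 0.72 ± 0.23 and 73.8 ± 34.2 TPM in the same order. Between 12111 and 16854 IDs per library reached 1 TPM, and the number of reads behind a value is unknown, so no counting interval can be given. In the 5 libraries of pools 9 and 10, a pair of IDs with the clone name si:dkeyp-3b12 held 25.7% to 35.8% of all TPM, against at most 2.09% in the other 11, which lowers every other share there. Libraries of bulk cells do not tell fewer cells of a type apart from less RNA per cell.

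The name of the set, endothelial genes, rests on no marker among the members. None of the 48 was on a list of 30 endothelial identity genes or a list of 20 endocardial genes. These lists matched only 26 and 23 of the 31388 IDs. The markers kdrl and cdh5 had means of 387 and 416 TPM in uninjured and 214 and 333 TPM in 7 dpi mCherry-positive cells. They missed the bound of 50 TPM at 7 dpi and also the ratio of means that the rule asks for. Their absence is therefore not due to the bound alone. As the lists are short, little is read from the absence of listed genes. Of the 48, 44 had a symbol, 36 had a usable gene name, 8 had a clone-style name and 4 had an ID alone. The 36 fall into 9 genes of gene expression and DNA, 5 of signalling, 5 of protein folding, turnover and mitochondria, 4 of membrane lipids and lipid synthesis, 6 other enzymes and transporters, 5 of cytoskeleton and membrane traffic and 2 given no role here, a grouping made after the values were seen. The other 12 of the 48 have no usable name. Of 31 members matched by symbol to RefSeq genes of another assembly, 29 were protein coding, none neighboured another, and at most 4 shared a chromosome.

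The uninjured libraries stood apart from all 13 others in the summed level of the 48. The sum was 2671, 2004 and 1614 TPM in uninjured pools 2, 3 and 4. It was 367, 497, 396 and 667 TPM in mCherry-positive pools 5, 6, 7 and 9 at 7 dpi, 537, 421 and 482 TPM in citrine-positive pools 7, 9 and 10, and 364 to 701 TPM in the double-negative pools. The 3 sorts at 7 dpi overlapped with each other in this sum. All 48 had their highest mean in uninjured cells. The rule fixes this against the mCherry-positive sort at 7 dpi. Against the other sorts it favours it, since it chose IDs that are high in uninjured cells. Nothing is therefore read from this count or from the height of the uninjured sum. At 7 dpi the mCherry-positive mean was the lowest of the 4 group means for 15 members, the citrine-positive mean for 21 and the double-negative mean for 12.

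**Figure D1:**
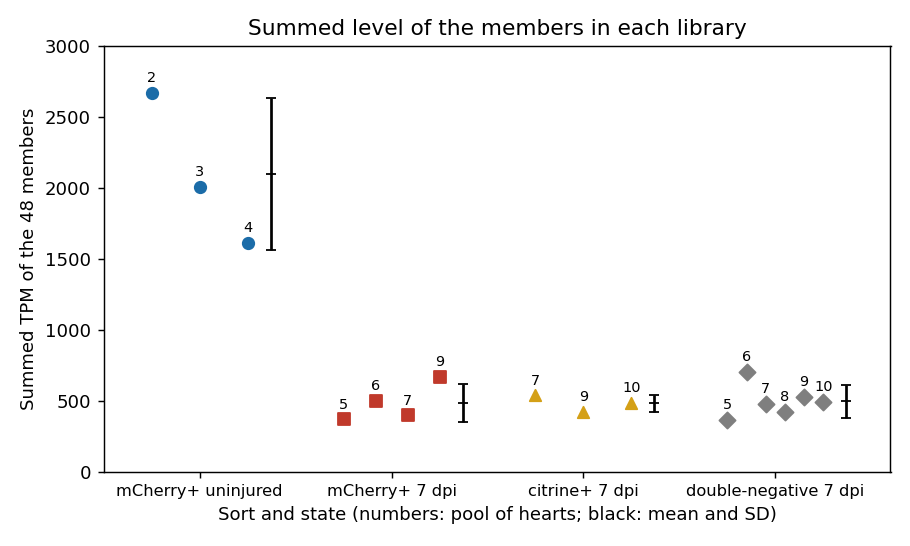
Summed TPM of the 48 members (vertical axis) in each of the 16 libraries, by sort and state, with the pool number above each point and the group mean and SD in black. The 3 uninjured libraries lie between 1614 and 2671 TPM and the 13 libraries at 7 dpi between 364 and 701 TPM.

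The median of the 48 group means was 35.7 TPM in uninjured cells, 7.80 TPM in mCherry-positive cells at 7 dpi, 8.66 TPM in citrine-positive and 9.68 TPM in double-negative cells. Over all IDs tested the same medians were 4.91, 4.79, 3.89 and 4.83 TPM. The rule bounds the endothelial values at 7 dpi, so nothing is read from how near they lie to the other sorts. For 15 members both other sorts had a mean below that of mCherry-positive cells at 7 dpi, and for 15 both had a mean above it. The double-negative mean alone was above for 12, and the citrine-positive mean alone for 6. Every citrine-positive and double-negative library lay below every uninjured mCherry-positive library for 28 of the 48, where 28.4% of the 3998 IDs with an uninjured mean of at least 20 TPM did so. The uninjured values are in that count as in the rule, so nothing is read from it.

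**Figure D2:**
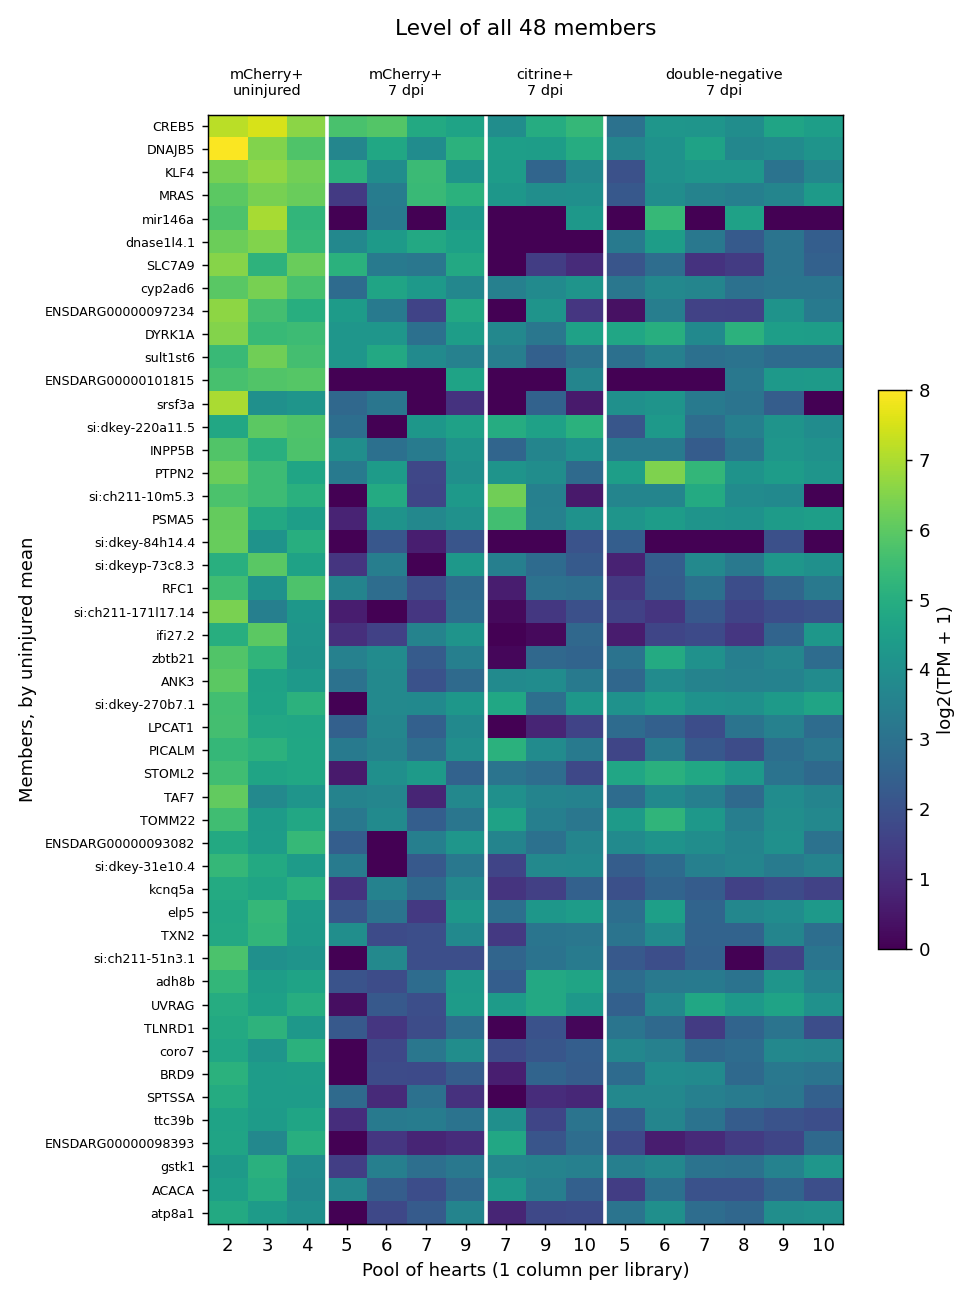
Level of each of the 48 members (rows, ordered by uninjured mean) in each of the 16 libraries (columns, with pool numbers), as log2(TPM + 1). The first 3 columns, uninjured cells, are brighter in every row than the next 4, as the choice requires, and darkest cells are values listed at 0.

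Members differed in how far apart the groups lay. The ratio of means ran from 3.01 to 13.9 with a median of 3.69. The lowest uninjured library was 1.003 to 5.59 times the highest 7 dpi library, each plus 1, with a median of 1.45, and at least 2 times for 8 members. In the endothelial sort at 7 dpi, 19 of 192 values, in 16 members, were listed at 0, against none of 144 in uninjured cells, 16 of 144 in citrine-positive and 14 of 288 in double-negative cells. The rule allows no 0 in uninjured cells and chose low values in the endothelial sort at 7 dpi. Nothing is therefore read from these counts. A 0 in this table can be a failed estimate as well as a missing transcript.

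Single libraries weighed on the set. Uninjured pool 2 was the highest uninjured library for 25 members, and 7 dpi pool 9 was the highest of its group for 23 and the lowest for 2, while pool 5 was the lowest for 22. The same counts over all IDs are not given, so these are not read as particular to the 48. In 7 dpi mCherry-positive pool 9, 15738 IDs reached 1 TPM, against 12111 to 13258 in the other pools of its group. The coefficient of variation over the uninjured libraries had a median of 36.9% and reached 120%. Without uninjured pool 2, 29 of the 48 still met the 3 value thresholds. Leaving out each other mCherry-positive library kept between 34 and 45. Whichever library was left out, 12 met them, and 10 of these also met the whole rule after median-of-ratios scaling: DNAJB5, mir146a, cyp2ad6, INPP5B, RFC1, TLNRD1, si:dkey-84h14.4, si:dkeyp-73c8.3, si:dkey-31e10.4 and ENSDARG00000101815.

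**Figure D3:**
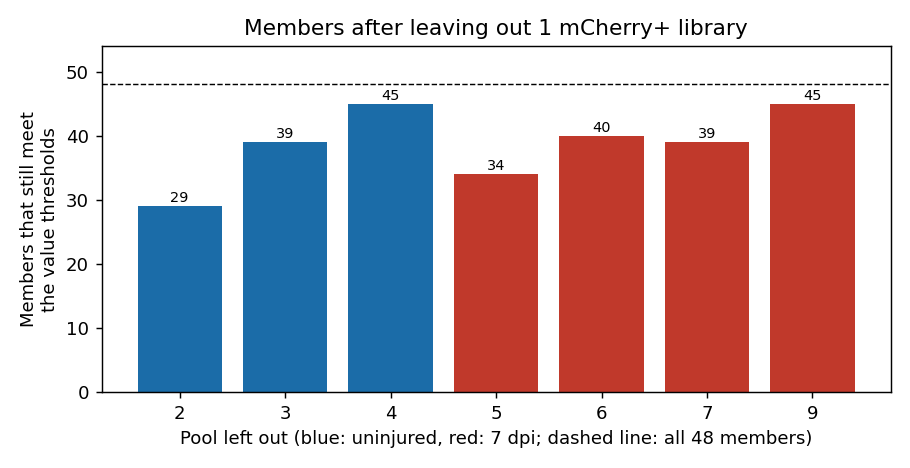
Number of the 48 members that still met the value thresholds (bars, from 0) after leaving out 1 mCherry-positive library at a time, with blue for uninjured and red for 7 dpi pools. Without uninjured pool 2 the number is 29, and without the others it is 34 to 45.

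The thresholds cut through a continuous range. By uninjured mean, atp8a1 at 20.91 TPM and ACACA at 21.6 TPM were just inside, and DPM2 at 19.5 TPM and PPTC7 at 18.7 TPM just outside. By 7 dpi mean, CREB5 at 40.2 TPM and KLF4 at 27.0 TPM were the highest inside, and TRIM8 at 50.4 TPM and si:dkeyp-8h9.1 at 62.0 TPM were just outside. By ratio, si:dkey-270b7.1 and gstk1, both at 3.01, were just inside, and ifngr1l and ENSDARG00000097882, both at 2.98, just outside.

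In what follows, values are TPM in pool order: pools 2, 3 and 4 for uninjured cells, pools 5, 6, 7 and 9 for mCherry-positive cells at 7 dpi, and pools 7, 9 and 10 for citrine-positive cells. For the 6 double-negative libraries the lowest, the median and the highest are given. Of the transcription factors, CREB5 (ENSDARG00000099002), of the family that binds cAMP response elements, had the highest uninjured mean of the set. It had 144, 182 and 96.6 TPM in uninjured and 51.5, 57.1, 28.2 and 24.1 TPM in 7 dpi mCherry-positive cells, a ratio of means of 3.44. In citrine-positive cells it had 14.2, 29.7 and 39.2 TPM, and in double-negative cells 7.06, 17.2 and 24.5 TPM. The 3 sorts at 7 dpi overlapped, with the endothelial libraries of pools 5 and 6 the highest. KLF4 (ENSDARG00000079922), a zinc-finger factor that laminar flow raises in endothelium and that is also an immediate early gene, had 81.6, 102 and 77.6 TPM in uninjured and 34.6, 14.3, 42.5 and 16.5 TPM in 7 dpi mCherry-positive cells (ratio 3.14). It had 20.6, 5.05 and 12.2 TPM in citrine-positive and 2.97, 13.7 and 17.3 TPM in double-negative cells. The uninjured libraries were close to each other, whereas those at 7 dpi split into pools 5 and 7, which were higher, and pools 6 and 9.

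The gene of the microRNA hairpin mir146a (ENSDARG00000083310) gives a microRNA known to restrain NF-kB signalling. The libraries are labelled as polyA RNA, so its value is not a level of the mature microRNA. It had 53.99, 122 and 37.4 TPM in uninjured and 0, 8.54, 0 and 18.6 TPM in 7 dpi mCherry-positive cells. Citrine-positive cells had 0, 0 and 18.3 TPM, and double-negative cells 0, 0 and 39.9 TPM. It was listed at 0 in part of the libraries of each sort at 7 dpi, with values from 8.54 to 39.9 TPM in the libraries where it was listed above 0.

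Among genes for splicing, DNA and chromatin, RFC1 (ENSDARG00000054799), the large subunit of the clamp loader of DNA replication, had 45.6, 15.97 and 53.2 TPM in uninjured and 11.1, 6.22, 2.64 and 5.75 TPM in 7 dpi mCherry-positive cells (ratio 5.29). It had 0.57, 7.12 and 6.57 TPM in citrine-positive and 1.51, 4.62 and 8.36 TPM in double-negative cells, so all 3 sorts at 7 dpi overlapped. BRD9 (ENSDARG00000017143), a bromodomain subunit of the non-canonical BAF chromatin remodeller, had 33.8, 20.53 and 20.85 TPM in uninjured and 0, 2.57, 2.5 and 4.16 TPM in 7 dpi mCherry-positive cells (ratio 7.87). It had 0.61, 5.03 and 4.1 TPM in citrine-positive and 5.7, 7.8 and 13.9 TPM in double-negative cells. Every double-negative library of BRD9 lay above every mCherry-positive and citrine-positive library at 7 dpi. The rule chose low mCherry-positive values at 7 dpi, so nothing is read from that part. Between citrine-positive and double-negative cells BRD9 was not called in the limma fit given below (limma adjusted p = 0.0729). The splicing factor gene srsf3a (ENSDARG00000100815) had 125, 15.2 and 17.2 TPM in uninjured and 5.49, 7.75, 0 and 1.25 TPM in 7 dpi mCherry-positive cells. Citrine-positive cells had 0, 4.69 and 0.50 TPM of it and double-negative cells 0, 8.03 and 16.7 TPM. Its ratio of 11.6 rested on uninjured pool 2, and it no longer met the thresholds without that library. The 9 members of this role, which include the zinc-finger gene zbtb21, TAF7 of the basal transcription factor TFIID and elp5 of the Elongator complex, had uninjured means from 25.04 to 141 TPM and 7 dpi means from 2.31 to 40.2 TPM.

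Reads that match several similar genes are shared out by RSEM, which makes the level of a near copy uncertain. SRSF3 (ENSDARG00000025397), another ID of that name, had 5.40, 67.5 and 56.8 TPM in uninjured pools 2, 3 and 4, low in the pool where srsf3a was high, and 70.7, 45.8, 28.7 and 43.8 TPM at 7 dpi. Another, SRSF3 (ENSDARG00000059360), had 158, 203 and 130 TPM in uninjured and 110, 115, 93.1 and 67.6 TPM in 7 dpi cells. Whether reads were moved between these IDs was not tested. Of the members with a usable name, 9 had another ID of the same symbol, or of the same symbol once a paralog letter was dropped, 10 IDs in all, of which 8 had an uninjured mean of at least 1 TPM. Of these 8, 1 was lower without overlap in 7 dpi mCherry-positive cells, SRSF3 (ENSDARG00000059360). The others overlapped. Uninjured and 7 dpi means were 42.9 and 32.3 TPM for ank3b, and 22.6 and 15.8 TPM for the other PICALM ID. They were 17.1 and 12.9 TPM for the other DYRK1A ID, 15.4 and 4.59 TPM for the other CREB5 ID, and 5.53 and 1.905 TPM for ptpn2a. The fall of a member is thus that of its ID.

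Of the signalling genes, MRAS (ENSDARG00000075285), a small GTPase of the Ras family, had 62.2, 81.04 and 71.8 TPM in uninjured and 1.55, 9.16, 41.7 and 33.2 TPM in 7 dpi mCherry-positive cells (ratio 3.24). It had 17.7, 14.6 and 14.8 TPM in citrine-positive and 3.65, 11.2 and 19.3 TPM in double-negative cells. Its 7 dpi libraries were far apart, with pool 5 the lowest and pool 7 the highest. The other MRAS ID (ENSDARG00000062865) had 69.9 ± 25.6 TPM (SD, n = 3) in uninjured and 66.4 ± 30.3 TPM (n = 4) in 7 dpi mCherry-positive cells, and these groups overlapped. DYRK1A, a kinase, PTPN2, a tyrosine phosphatase, INPP5B, an inositol polyphosphate phosphatase, and kcnq5a, a potassium channel subunit, had uninjured means between 28.7 and 58.3 TPM and 7 dpi means between 7.49 and 15.6 TPM. PTPN2 (ENSDARG00000035986) was high in 1 double-negative library, pool 6, at 86.0 TPM, above its uninjured maximum of 72.5 TPM.

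Of the folding and mitochondrial genes, DNAJB5 (ENSDARG00000052881), a co-chaperone of the Hsp40 family, had 245, 87.8 and 54.8 TPM in uninjured and 11.7, 26.5, 13.7 and 34.6 TPM in 7 dpi mCherry-positive cells (ratio 5.76). It had 21.4, 21.1 and 30.15 TPM in citrine-positive and 11.5, 14.8 and 23.2 TPM in double-negative cells. Pool 2 was far above the other uninjured pools, and even the lowest uninjured library exceeded every library at 7 dpi. PSMA5, a proteasome subunit, STOML2 and TOMM22, proteins of the inner and outer mitochondrial membrane, and TXN2, the mitochondrial thioredoxin, had ratios from 3.05 to 3.37. STOML2 (ENSDARG00000103135) had 5.62, 22.4 and 32.95 TPM in double-negative cells, which overlapped its 45.6, 24.4 and 26.1 TPM in uninjured cells.

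The 4 lipid genes had uninjured means of 20.91 to 33.5 TPM. SPTSSA (ENSDARG00000071203), a small subunit of serine palmitoyltransferase, which starts sphingolipid synthesis, had 29.6, 20.43 and 20.57 TPM in uninjured and 5.82, 0.94, 6.94 and 1.22 TPM in 7 dpi mCherry-positive cells (ratio 5.19). It had 0, 1.01 and 0.86 TPM in citrine-positive and 4.5, 9.66 and 12.3 TPM in double-negative cells. Every citrine-positive library lay below every double-negative one. LPCAT1 (ENSDARG00000011506), which adds a fatty acid to lysophosphatidylcholine, had 47.9, 27.02 and 25.5 TPM in uninjured and 4.43, 11.6, 4.48 and 12.9 TPM in 7 dpi mCherry-positive cells. It had 0, 0.78 and 2.02 TPM in citrine-positive and 2.72, 6.02 and 10.33 TPM in double-negative cells, again without overlap between these groups. The flippase gene atp8a1 (ENSDARG00000063001), whose product moves phospholipids to the inner leaflet of membranes, had 27.9, 20.01 and 14.8 TPM in uninjured and 0, 2.33, 3.87 and 11.3 TPM in 7 dpi mCherry-positive cells. It had 0.79, 2.31 and 2.45 TPM in citrine-positive and 5.38, 11.1 and 15.6 TPM in double-negative cells, and these groups did not overlap. ACACA (ENSDARG00000078512), acetyl-CoA carboxylase of fatty acid synthesis, differed from the other 3 in having 18.9, 9.65 and 4.45 TPM in citrine-positive and 1.72, 3.05 and 6.73 TPM in double-negative cells, which overlapped.

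Of the other enzymes and transporters, dnase1l4.1 (ENSDARG00000015123), named for its likeness to DNase I, had 72.1, 88.7 and 39.99 TPM in uninjured and 12.4, 19.6, 27.7 and 22.4 TPM in 7 dpi mCherry-positive cells (ratio 3.15). It was listed at 0 in all 3 citrine-positive libraries and had 3.79, 7.78 and 20.92 TPM in double-negative cells. No other member was listed at 0 in a whole group. SLC7A9 (ENSDARG00000005894), the light subunit of an amino acid transporter, had 92.02, 34.95 and 71.3 TPM in uninjured and 33.5, 8.82, 8.02 and 27.1 TPM in 7 dpi mCherry-positive cells. It had 0, 1.76 and 0.96 TPM in citrine-positive and 1.26, 3.98 and 7.48 TPM in double-negative cells, all below every mCherry-positive library. The cytochrome P450 gene cyp2ad6 (ENSDARG00000042956) had 61.4, 80.63 and 50.19 TPM in uninjured and 5.92, 24.8, 18.99 and 12.14 TPM in 7 dpi mCherry-positive cells. It had 10.25, 13.3 and 16.7 TPM in citrine-positive and 6.92, 7.82 and 12.2 TPM in double-negative cells, so 7 dpi levels overlapped in all sorts. For adh8b (ENSDARG00000024278), an alcohol dehydrogenase, citrine-positive cells had 4.27, 27.5 and 24.6 TPM and uninjured cells 38.5, 20.83 and 24.1 TPM. Its paralog adh8a (ENSDARG00000091211) had 0.12 ± 0.12 TPM in uninjured mCherry-positive and 151 ± 39.3 TPM in citrine-positive libraries (SD, n = 3 each).

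Of the cytoskeletal and traffic genes, TLNRD1 (ENSDARG00000079017), which bundles actin, had 28.2, 35.2 and 18.2 TPM in uninjured and 3.71, 1.43, 2.64 and 6.22 TPM in 7 dpi mCherry-positive cells (ratio 6.26). It had 0, 3.07 and 0.10 TPM in citrine-positive and 1.65, 5.29 and 7.63 TPM in double-negative cells. The 7 dpi sorts overlapped. ANK3 (ENSDARG00000061736), which encodes ankyrin-G, a link between membrane proteins and spectrin, had 62.7, 23.3 and 19.2 TPM in uninjured and 7.11, 12.6, 3 and 5.85 TPM in 7 dpi mCherry-positive cells. It had 13.3, 13.7 and 8.6 TPM in citrine-positive and 5.35, 10.93 and 13.6 TPM in double-negative cells. Pool 2 was far above the other uninjured pools, and without it ANK3 did not meet the thresholds. The coronin gene coro7 (ENSDARG00000089616), whose product acts in traffic from the Golgi, had 25.6, 16.9 and 33.7 TPM in uninjured and 0, 2.35, 7.99 and 14.2 TPM in 7 dpi mCherry-positive cells. It had 2.58, 3.44 and 4.22 TPM in citrine-positive and 5.36, 11.1 and 12.2 TPM in double-negative cells, where the citrine-positive group lay below. PICALM, an adaptor of clathrin coats, and UVRAG, of autophagy and endosome traffic, had uninjured means of 33.2 and 27.7 TPM.

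**Figure D4:**
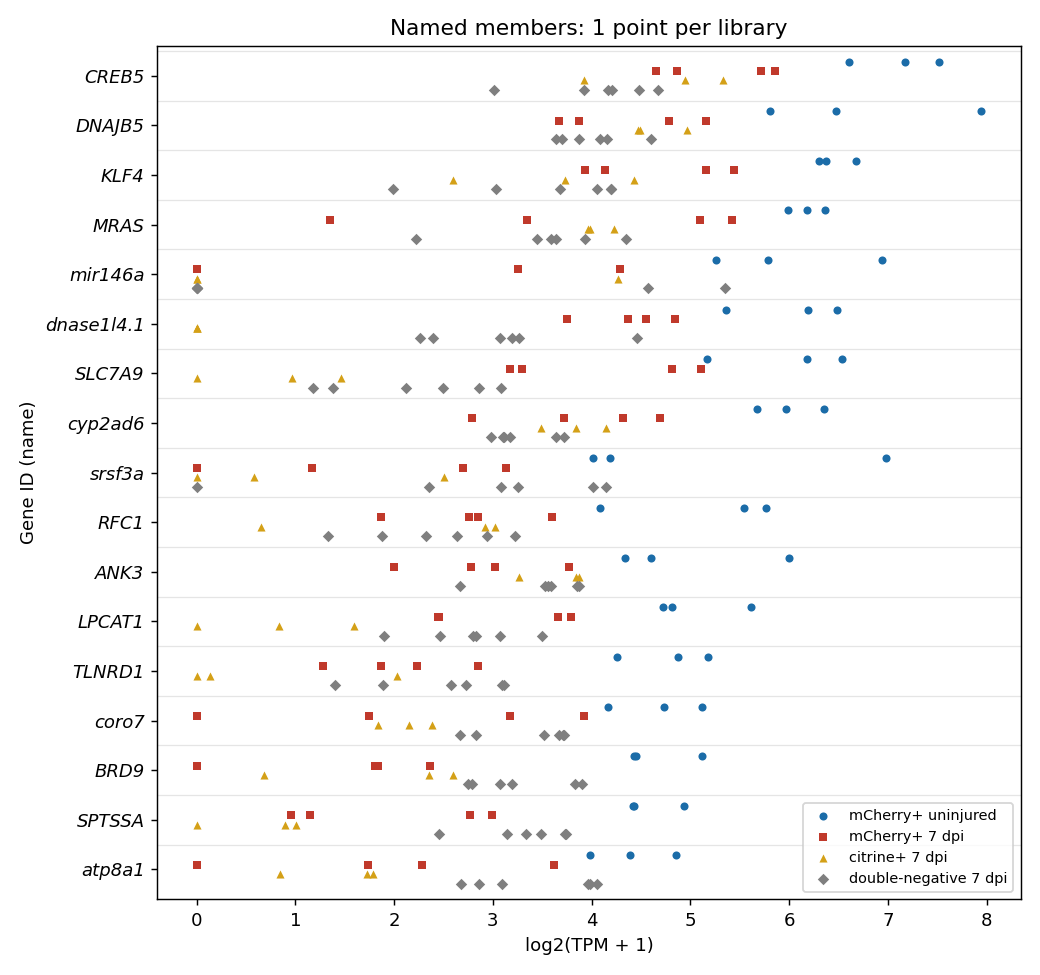
Level of the 17 members described library by library, as log2(TPM + 1) on the horizontal axis, with 1 point per library and colour and shape for the sort and state. Uninjured points (blue) lie to the right of the 7 dpi mCherry-positive points (red) by choice, and citrine-positive points (yellow) of dnase1l4.1 lie at 0.

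The 12 members without a usable name had uninjured means from 22.7 to 59.3 TPM and ratios up to 13.9. ENSDARG00000101815 had 50.11, 55.2 and 58.6 TPM in uninjured and 0, 0, 0 and 23.9 TPM in 7 dpi mCherry-positive cells, where 3 of 4 libraries were listed at 0. It had 0, 0 and 11.4 TPM in citrine-positive and 0, 4.07 and 19.5 TPM in double-negative cells. ENSDARG00000098393 had 0, 1.38, 0.78 and 1 TPM in 7 dpi mCherry-positive cells against 24.5, 12.3 and 31.2 TPM in uninjured cells. It had 26.8, 3.33 and 6.3 TPM in citrine-positive cells, which overlapped the uninjured values, and 0.57, 1.93 and 5.64 TPM in double-negative cells. Of the 48 members, 2 stand for several IDs with identical values, up to 17 of them, so their reads cannot be assigned to a gene.

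The comparison that the choice did not use was citrine-positive against double-negative cells at 7 dpi. It asks whether these genes differ between periostin-reporter cells and cells of the injured heart with neither colour. Endothelial markers were still present in the latter. The endothelial identity list summed to 391 to 1134 TPM in double-negative and 87.7 to 104 TPM in citrine-positive libraries. What part this has in the differences was not tested. It was fitted with limma on log2(TPM + 1) over these 9 libraries and all 17604 IDs that reached 1 TPM in 3 or more of them, with Benjamini-Hochberg adjustment over all. Of the 48, 5 were lower in citrine-positive cells at an adjusted p under 0.05, where 10.5% of all IDs tested were lower, and none was higher, where 2.48% of all were. The members' share of lower calls is thus near the background. At an unadjusted p under 0.05 there were 16 of 48 members, where 27.4% of all IDs tested were, and 28 of 48 estimates were below 0, where 62.6% of all were. The median difference was -0.21 over the members and -0.25 over all IDs tested, on the log2 scale.

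The 5 were dnase1l4.1, SPTSSA, atp8a1, LPCAT1 and coro7, 3 of them among the 4 lipid genes, a grouping made after the values were seen. The difference, citrine-positive minus double-negative, was -2.68 ± 0.41 (SE) for SPTSSA (limma adjusted p = 6.41e-04), with 3 of 3 citrine-positive libraries below all 6 double-negative ones. For atp8a1 it was -1.99 ± 0.44 (limma adjusted p = 0.00794), with the same separation. For LPCAT1 it was -1.95 ± 0.46 (limma adjusted p = 0.0125), also with full separation. The DNase-like dnase1l4.1, listed at 0 in the 3 citrine-positive libraries, had an estimate of -3.11 ± 0.48 (limma adjusted p = 6.00e-04), which depends on the constant added. For coro7 the difference was -1.23 ± 0.38 (limma adjusted p = 0.047), and it lost its call in 15 of 18 other settings. With pool number as a block, 3 members were lower, as LPCAT1 (adjusted p = 0.0596 by limma) and coro7 (adjusted p = 0.124 by limma) missed the threshold.

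These calls depend on the scaling of the shares. Pools 9 and 10, where the si:dkeyp-3b12 IDs lower every other share, make up more of the citrine-positive than of the double-negative libraries. Without scaling, 437 IDs of all tested were higher and 1845 lower in citrine-positive cells. After median-of-ratios scaling 1098 were higher and 1679 lower, and 5 members were then called higher: PICALM, cyp2ad6, DNAJB5, ACACA and si:dkey-220a11.5. In both scalings dnase1l4.1, SPTSSA, atp8a1 and LPCAT1 were lower. The scaling moves the median difference of all IDs from -0.25 to -0.03, and that of the members from -0.21 to about 0.

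**Figure D5:**
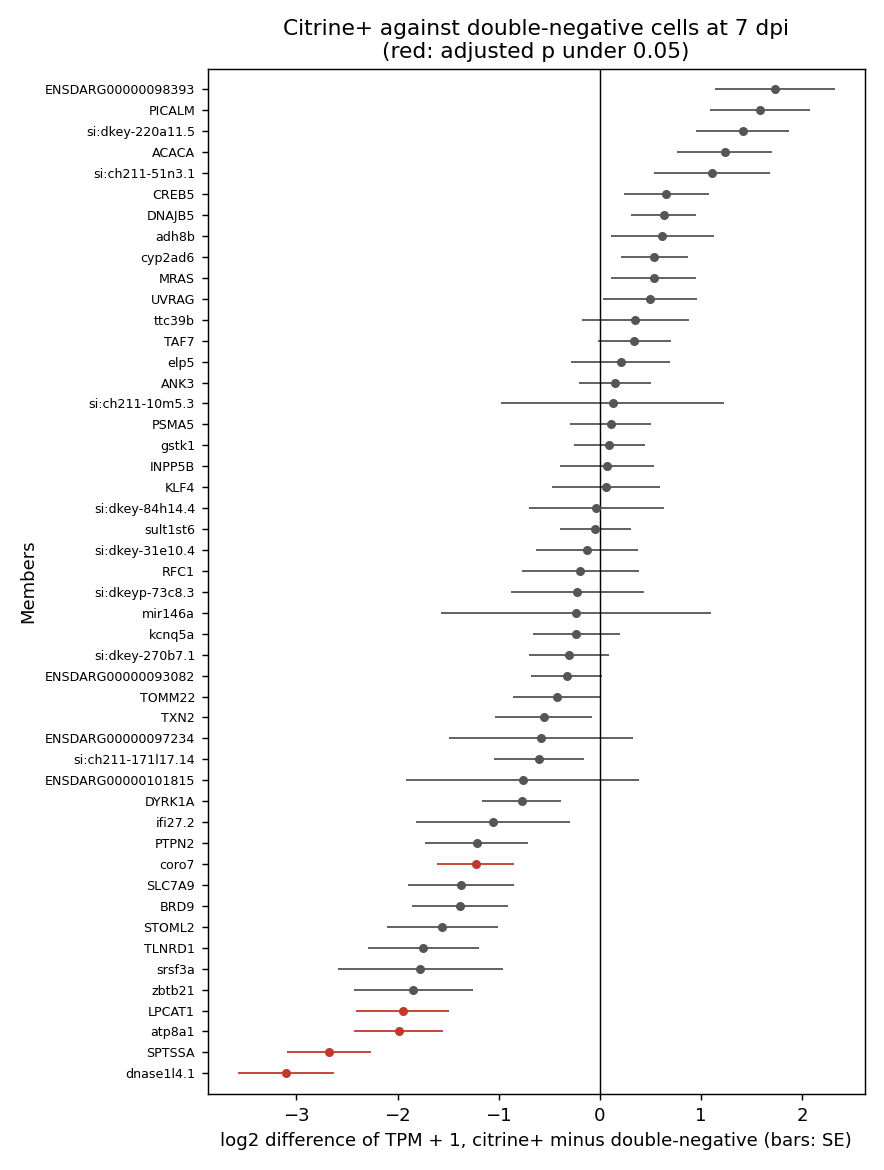
Difference between citrine-positive and double-negative cells at 7 dpi in log2(TPM + 1) for each of the 48 members (points, with SE bars), ordered by size. The 5 members in red, with an adjusted p under 0.05, all lie below 0, between -3.11 and -1.23, and the others on both sides of it.

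Other genes were taken from 20 lists of pathways and cell types, 6 of which hold a member, and, with members left out, compared between mCherry-positive cells at 7 dpi and uninjured ones with limma over all 16 libraries. Of 19039 IDs tested, 0.42% were higher and 0.273% lower at an adjusted p under 0.05. By the same test 8 of the 48 members were called lower, and nothing is read from this, since the same values chose them. Of 405 other listed IDs, 11 were higher and 3 lower, with 72 at an unadjusted p under 0.05, where 11.5% of all IDs tested were. The lists were chosen with earlier results of these data known, so nothing is read from how these counts compare with all IDs. Of the 3 lower IDs 1 is CALCRL, which met the rule's thresholds itself, so its call is a description like those of the members. Counts and the median log2 difference are given for the lists described 1 by 1 below, not for every list. The median over all IDs tested was -0.06.

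KLF4 is on a list of blood flow genes and on a list of immediate early and dissociation-response genes, which rise within minutes of stress. Of 24 other blood flow IDs none passed by limma, 4 had an unadjusted p under 0.05, and the median was -0.48. The one with the lowest adjusted p was heg1 (ENSDARG00000018441), a receptor of endothelial junctions, with 379, 430 and 267 TPM in uninjured and 127, 172, 163 and 103 TPM in 7 dpi cells, a log2 difference of -1.34 ± 0.40 (SE, limma adjusted p = 0.154). Of 39 other immediate early IDs none passed, 14 had an unadjusted p under 0.05, and the median was -0.72. BTG2 (ENSDARG00000020298), an antiproliferative gene, is given because it had the lowest adjusted p of that list. It had 2105, 2059 and 1276 TPM in uninjured and 496, 528, 343 and 520 TPM in 7 dpi cells, a difference of -1.93 ± 0.50 (limma adjusted p = 0.0988). Its ID was among 5 fixed in advance to be left out of the set, and its 7 dpi mean missed the bound of 50 TPM.

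The summed level of the immediate early list moved with the choice. Its 42 matched IDs summed to 21852 to 30262 TPM in uninjured mCherry-positive libraries, 9649 to 14681 TPM in those at 7 dpi, 3484 to 5436 TPM where citrine was sorted, and 3320 to 7623 TPM where neither colour was. The 3 listed IDs fosaa, NR4A2 and irf1a were at 0 in all uninjured libraries, and NR4A2 also in all mCherry-positive ones at 7 dpi. Its part in the fall of the 48 was not tested.

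DNAJB5 is on a list of heat shock genes and chaperones, of which 35 other IDs were tested, with 1 lower, none higher, 6 at an unadjusted p under 0.05 and a median of 0.04. The lower one was DNAJB4 (ENSDARG00000038978), another Hsp40 co-chaperone, with 16.01, 2.53 and 4.71 TPM in uninjured and 0, 0.25, 0 and 1.25 TPM in 7 dpi cells, a difference of -2.43 ± 0.56 (limma adjusted p = 0.0477). The list summed to 16460 to 25044 TPM in uninjured and 3995 to 34230 TPM in 7 dpi mCherry-positive libraries, which overlap.

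BRD9 is on a list of BAF remodelling genes, of which none of 28 passed by limma, 4 had an unadjusted p under 0.05, and the median was 0.02. SMARCB1 (ENSDARG00000011594), a core BAF subunit, had the lowest adjusted p there (0.189 by limma), with 0.26 ± 0.45 TPM in uninjured and 6.52 ± 5.64 TPM in 7 dpi cells. SPTSSA is on a list of sphingolipid genes, where 2 of 29 other IDs were higher and none lower, 4 had an unadjusted p under 0.05, and the median was 0.35. These were S1PR1 (ENSDARG00000042690), a receptor for sphingosine 1-phosphate, from 1.44 ± 1.79 to 27.4 ± 17.5 TPM (SD, n = 3 and 4, limma adjusted p = 0.00325), and UGCG, which makes glucosylceramide, from 4.19 ± 3.35 to 23.2 ± 5.17 TPM (limma adjusted p = 0.0254). Without uninjured pool 2, DNAJB4 and UGCG missed the threshold, with adjusted p of 0.205 and 0.0518 by limma. Other single libraries also ended these calls.

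On the 14 lists without a member, the higher IDs were nfil3-5, COL5A1, FN1, MYLK, MFAP4, apoeb and THBS1, besides S1PR1, and the lower one was CALCRL, a receptor for adrenomedullin, chosen by the rule as said. Mean TPM at 7 dpi in mCherry-positive, citrine-positive and double-negative cells was 45.6, 808 and 252 for FN1 and 197, 894 and 317 for COL5A1. In that order it was 65.2, 144 and 107 for THBS1, 19.2, 0.55 and 39.4 for MFAP4, and 12.6, 4.34 and 16.1 for nfil3-5. It was 18.5, 17.5 and 17.3 for MYLK, 51.7, 17.65 and 19.5 for apoeb, and 27.4, 15.9 and 17.6 for S1PR1. What part cells of other sorts had in these rises was not tested. MYLK and THBS1 each lost their call in 10 of 14 other settings, and without uninjured pool 2 COL5A1 lost it too (adjusted p = 0.0885 by limma). With the 7 mCherry-positive libraries alone apoeb was the only one of the 11 still called. In that fit 4 of all 14576 IDs tested were higher and none lower. In lists without a call the lowest adjusted p by limma was 0.284 for edn1, 0.23 for RRM2, 0.38 for tpm4a, 0.324 for upk3b, 0.553 for mmp13a, 0.347 for cd8a and 0.179 for gata1a.

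The summed levels of cell type markers are given for the mCherry-positive groups. The fibroblast and matrix list of 19 IDs summed to 856 to 1094 TPM in uninjured and 1237 to 3338 TPM in 7 dpi libraries, with TNC and LUM at 0 in all uninjured ones. Of 18 tested, 2 were higher by limma and none lower, and the median was 0.87. An unadjusted p under 0.05 was found for 8, where 11.5% of all IDs tested had one. The cardiomyocyte list of 17 IDs summed to 10538 to 13792 TPM and 4687 to 8989 TPM, with TNNT2 and TNNI1 at 0 in both groups. No ID of it was called by limma, 1 of 16 tested had an unadjusted p under 0.05, and the median was -0.48. The macrophage list of 22 IDs summed to 278 to 1366 TPM and 512 to 2535 TPM, which overlap. Of these 22, 2 were higher by limma and none lower, 9 had an unadjusted p under 0.05, and the median was 1.11. The endothelial identity list of 26 IDs summed to 2961 to 4607 TPM and 2376 to 4079 TPM, which overlap as well. Of these 26, 1 was higher by limma and none lower, 3 had an unadjusted p under 0.05, and the median was -0.30. What part these levels have in the fall of the 48 was not tested.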

How the data were processed

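The authors deposited 1 table of TPM per gene ID and library, the unit read from the values, which sum to 1000000 in each library. The submitters' processing notes name the build Zv9 and the tools RSEM 1.2.25, cutadapt and CASAVA 1.8.2. The annotation is not given in the sources used here. Per the labels' protocols, 0.2 to 0.6 ng of RNA went into the Ovation Single Cell RNA-Seq kit, with amplification, and was read as single reads of 60 bases. Column names gave the sample of all 16 columns.

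Members, lists and tests were chosen with earlier results of these data known. The planned tests foresaw counts or normalized values, and the latter applied: the trend option of limma 3.58.1 (R 4.3.3) on log2(TPM + 1), which understates the change of low genes. IDs that reached 1 TPM in 3 or more libraries were tested, two-sided, with Benjamini-Hochberg adjustment and a threshold of 0.05. The steps were tested on simulated data. Simulated levels were set well above the real ones, so low values and values of 0 were hardly covered. Members with usable names were described if among the 8 with the highest uninjured mean, the 8 with the largest ratio, on a gene list, or called in citrine-positive against double-negative cells. Others are named after their values were seen, as were the roles. Of 447 listed genes 38 had no match, and a match after dropping a paralog letter can take in more than 1 paralog. The genes of 1 list are counted in the totals and not reported here.

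Each library is a pool of hearts. Citrine-positive and double-negative libraries share the pool numbers 7, 9 and 10. The correlation of their deviations from the group means was 0.171, 0.242 and 0.201, and the equal numbers were taken to pair them. However, citrine-positive pool 7 correlated best with double-negative pool 6 (0.184). Pools 9 and 10 also share the high share of the si:dkeyp-3b12 IDs. The correlations therefore do not show that the hearts were the same. The main fit left this pairing out and treated the libraries as independent. It entered only through the block by pool. Alternatives were scaling, constants, filters, fits on fewer or more libraries, the block by pool and leaving out libraries. Python 3.11.15 (pandas 2.3.3, numpy 2.4.6, matplotlib 3.10.9) gave tables and plots.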

Additional observations from a re-analysis of the deposited data

Results flagged for a closer look

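For the 17 members described library by library and for the summed level of the 48, the spread within the groups of 4 and 6 libraries, 36 groups in all, was examined for a highest or lowest library far from the rest. 2 were found. Chance alone flags about 1 group in 20, so 2 of 36 is about what it gives. In double-negative cells dnase1l4.1 was highest in pool 6, at 20.92 TPM, far from the other 5. In double-negative cells ANK3 was lowest in pool 5, at 5.35 TPM, while the other 5 lay close together.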

How the results depend on the processing

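The set depends on the settings of its rule. It held 25 IDs after median-of-ratios scaling (24 of them members), 57 with a constant of 0.1 and 23 with a constant of 5 in the ratio, 151 at a ratio of at least 2 and 17 at a ratio of at least 4. Within pools 2 to 8 it held 83, of which 45 were members. Leaving out 1 library kept 29 to 45 of the 48. The median-of-ratios scaling divided uninjured pools 2, 3 and 4 by 1.47, 1.37 and 0.96, while the bounds in TPM were kept. A member could thus be lost by its level as well as by its ratio. BRD9 and SPTSSA, with unscaled ratios of 7.87 and 5.19, were among those lost. The members' median log2 difference, 7 dpi minus uninjured, was -2.15 without and -1.99 after scaling. The same values chose them, so this is a description.

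In citrine-positive against double-negative cells, members called higher were 1 with all 16 libraries in the fit, 5 after median-of-ratios scaling, 2 with a pseudocount of 5, 2 with a filter at 5 TPM, 4 in pools 5 to 8 and 0 to 2 with 1 library left out, against 0 as reported. Members called lower, 5 as reported, were 3 with pool number as a replicate block, 2 in pools 9 and 10, 8 in pools 5 to 8, where the lone citrine-positive library is assumed to vary like the others, and 4 to 8 with 1 library left out. The 8 came without double-negative pool 10. The block changed no other member's call. SPTSSA missed the threshold in pools 9 and 10 alone (adjusted p = 0.0553 by limma), as did LPCAT1 (0.0548). The calls of atp8a1 and dnase1l4.1 were kept in all 18 and 17 alternatives run. In pools 9 and 10 alone dnase1l4.1 could not be tested, since fewer than 3 libraries reached 1 TPM.

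For listed genes at 7 dpi against uninjured, 11 higher became 1 with the 7 mCherry-positive libraries alone, 6 with a pseudocount of 5 and 6 to 12 with 1 library left out, the 6 without uninjured pool 2. The 3 lower became 0 with those 7 libraries, 0 without a filter and 0 to 2 with 1 left out, with 0 without uninjured pool 2, 7 dpi pool 6 or 7 dpi pool 7 and 1 without uninjured pool 4 or 7 dpi pool 9. The causes were not tested. No paired analysis was possible between these groups because they share no pool number. The tool planned for counts was not run, since the values are TPM, whose depth is unknown.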
